A study of Drosophila melanogaster with 96 samples.

Results

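The genes described here are the 57 transcripts of the male *Drosophila melanogaster* head that were highest 4 or 8 h into the sampling day under a light-dark cycle, out of 17610 genes in the count table. A member had a mean of at least 5 CPM (counts per 1000000 counts of the library) in the light-dark libraries and a highest hourly mean at hour 4 or 8. Its highest hourly mean was at least 1.8 times its lowest, and the same pair of hours differed at least 1.4-fold on each sampling day. Of 8342 genes that reached the level, 2660 were highest at hour 4 or 8 and 59 met both fold criteria. Of 13 genes left out by name, *cry* and *Clk* were the 2 among these. The members were thus chosen by their light-dark values, which are given below as a description with no test; tests were run only in constant darkness. The same criteria at hours 12 or 16 gave 80 genes, and at hours 20 or 0 gave 105. The heads came from adult males of the ISO1 strain, and poly(A) RNA was sequenced in pairs of reads. All groups share that strain, sex and tissue and differ in temperature and light: constant darkness at 18 °C, 25 °C or 29 °C, and a 12 h light, 12 h dark cycle at 25 °C. Each of these 4 conditions holds 24 libraries, 2 biological replicates at each of 6 hours (0, 4, 8, 12, 16 and 20) on the days labelled 4 and 5. The labels do not state at which hour the lights came on.

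The fly's circadian clock is a transcriptional loop in which Clk and cyc activate genes for their own repressors, and light resets it through cry and through the visual system. A cycle of light and dark also drives transcripts without the clock, among them activity-regulated genes of neurons and genes of the eye. The compound eye fills much of the head, and its photoreceptors, pigment cells and lens-secreting cells give abundant transcripts to a whole-head library.

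The libraries held 17312403 to 34740843 counts, and the lowest median count of a member per library was 86.5. One pattern that crosses all 4 conditions touches the results below. The summed level of 5 photoreceptor markers (*ninaE*, *ninaC*, *trp*, *Arr2* and *inaD*, none at 0) was 56816 to 60321 CPM in the 12 light-dark libraries of hours 4, 12 and 20, and 25835 to 63276 CPM in the 12 of hours 0, 8 and 16. At hour 0 both light-dark libraries of replicate 1 were high (60143 and 63276 CPM) and both of replicate 2 low (32842 and 35600 CPM). In darkness replicate 1 was also the higher at hours 8 and 16 of day 4 at each temperature. At 25 °C these libraries held 79492.5 against 49018 and 84846 against 59253 CPM, whereas on day 5 both replicates held 51755 to 57796 CPM. The mean of hours 4, 12 and 20 over that of hours 0, 8 and 16 was 1.43 in the light-dark cycle, 1.22 in darkness at 25 °C, 1.28 at 18 °C and 1.197 at 29 °C. The fat body marker sum ran the other way: in the light-dark cycle 7 markers summed to 5216 to 6108 CPM at hour 4 and to 7966 to 9976 CPM at hour 16. Of these markers *Lsp2*, a member, went against the sum, with a ratio of hour 4 to hour 16 of 1.62. Another, *to*, is on the list of known clock outputs used below. The labels name no dissection or extraction batch. In whole heads, fewer cells of a type and less RNA per cell cannot be told apart. A comparison of hour 4 with hour 16 crosses the 2 sets of hours, with a light-dark photoreceptor marker ratio of 1.49, whereas hour 4 over hour 20 (0.970) and hour 8 over hour 16 (0.950) do not. The day contrast tested below sets the mean of hours 4 and 8 against that of hours 16 and 20. It asks whether members were higher in darkness at the hours at which they were high in the light, and it also weights both sets equally.

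**Figure D1:**
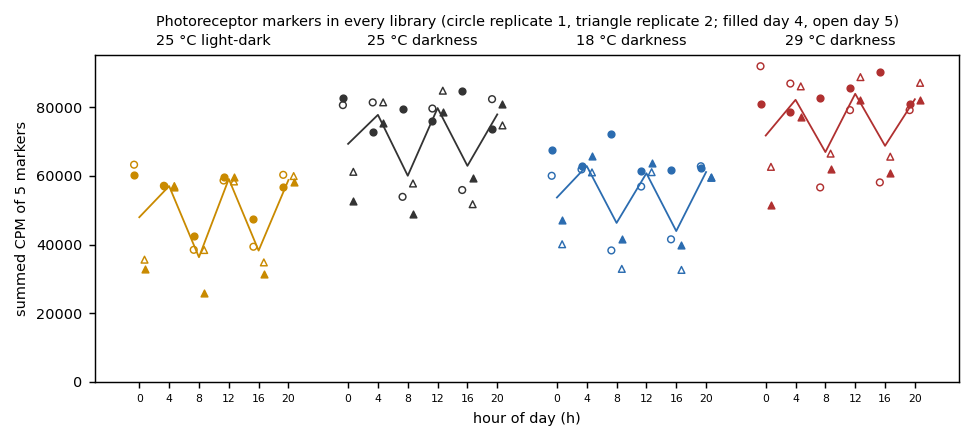
Summed CPM (y axis) of 5 photoreceptor markers in each of the 96 libraries against the hour of day (x axis) in 4 conditions; circles are replicate 1, triangles replicate 2, filled points day 4, open points day 5, and lines join hourly means. In every condition the libraries of hours 4, 12 and 20 lie in a narrower band than those of hours 0, 8 and 16, which hold both the highest and the lowest library (63276 and 25835 CPM in the light-dark cycle).

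In the light-dark cycle 47 members were highest at hour 4 and 10 at hour 8. The lowest hour was 16 for 37 members, 0 for 6, 20 for 6, 8 for 5 and 12 for 3. The ratio of highest to lowest hourly mean ran from 1.803 to 5.95 with a median of 2.11, and it reached 3 in 10 members. With the pairs 4 over 20 and 8 over 16, whose geometric mean weights both sets of hours equally, 26 members differed at least 1.4-fold and 13 at least 1.8-fold (0.803% and 0.24% of the 8342 genes). The rule chose the members by these same libraries, so a larger share than over all genes was built in. When the rule was applied to hours 4, 12 and 20 alone it found 23 genes, of which 16 were members, and with hours 0, 8 and 16 alone it found 19, of which 12 were members. Both sets of hours picked *Hr38*, lncRNA:CR46393, *Vajk2*, *Hpd*, *Lsp2*, CG4914, *hgo* and *Cyp305a1*. Neither picked 37 members, *inaC*, *gl*, *PIP82*, *Hdc* and *CarT* among them. A level at hours 4, 12 and 20 at least 1.2 times that at hours 0, 8 and 16 was seen in 39 members in the light-dark cycle (4.58% of the 8342 genes), and in 30, 30 and 29 in darkness at 25 °C, 18 °C and 29 °C (2.85%, 2.25% and 2.09%). Of these counts, the light-dark one comes from the libraries that chose the members.

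**Figure D2:**
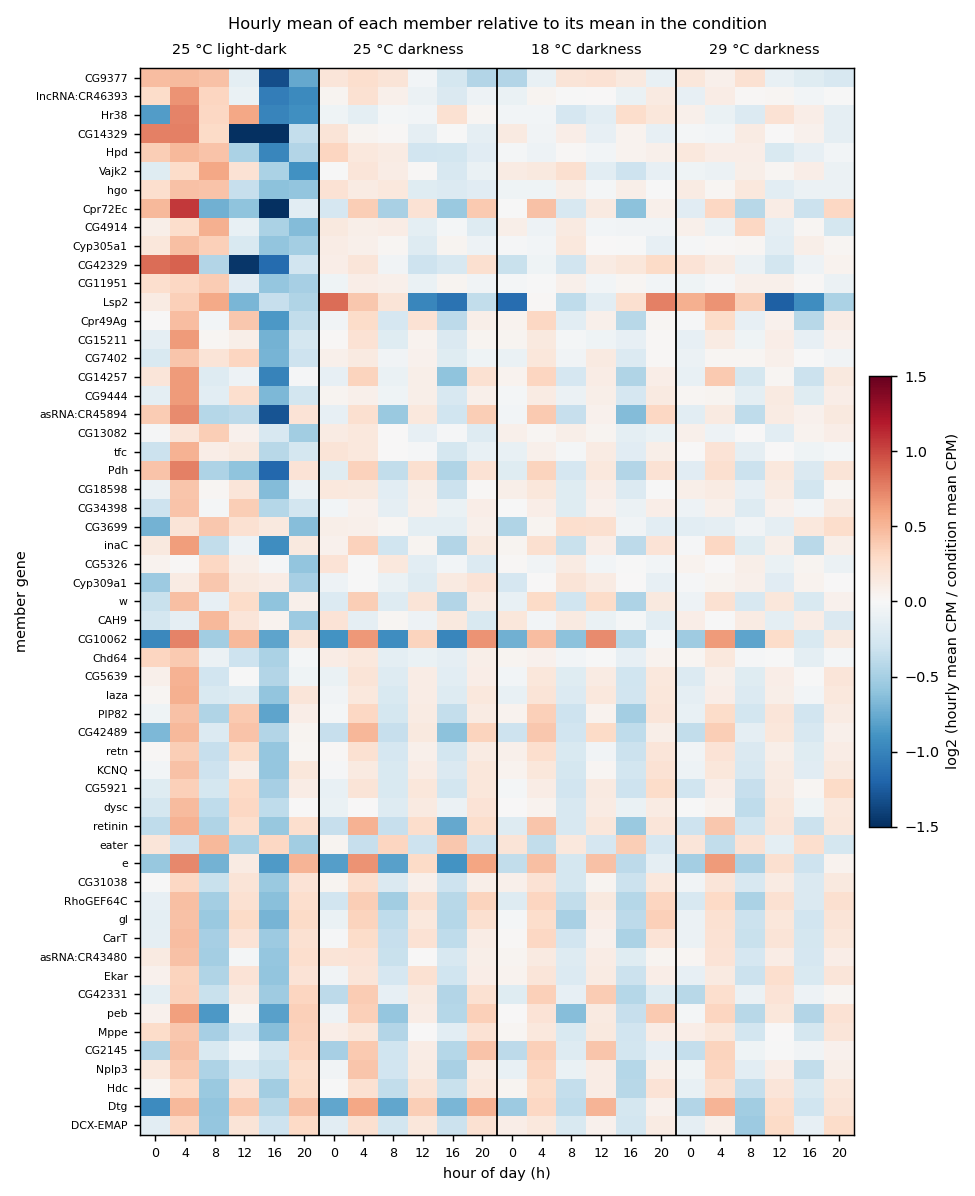
Hourly mean of each of the 57 members (rows) in 4 conditions (blocks of 6 hours, x axis), as log2 of the hourly mean CPM over the mean CPM of that condition. Rows are ordered by the light-dark ratio that weights both sets of hours equally: each of the top 10 rows (CG9377 to *Cyp305a1*) spans a wider range of hourly means in the light than in darkness, where *Cpr72Ec* among them still alternates between hours, while many lower rows repeat the same alternation in every condition. Light-dark values chose the members and set this order.

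The largest light-dark ratio was that of a corneal lens gene. *Cpr72Ec* (FBgn0036619), which encodes a cuticle protein of the corneal lens, had 254, 190.8, 265.4 and 191.3 CPM at hour 4 and 47.8, 36.0, 33.5 and 34.1 CPM at hour 16, a ratio of 5.95. Its hour 0 libraries were also high, 104 to 195 CPM, and its hour 8 libraries, 52.6 to 82.7 CPM, lay below all of those. In darkness at 25 °C the same hours gave a ratio of 1.90, but hour 20 (144 to 185 CPM) overlapped hour 4 (158 to 165 CPM), and the day contrast was 0.04 ± 0.08 (log2, SE). *retinin*, another lens protein gene, peaked at 1019 to 1394 CPM at hour 4 with 509 to 653 CPM at hour 16. Its ratio was as large in darkness at 25 °C, 2.45 against 2.12 in the light. Hours 4, 12 and 20 over hours 0, 8 and 16 gave 1.78 in darkness and 1.75 in the light. Replicate 1 exceeded replicate 2 at hour 0 in 2 of 8 pairs, whereas the photoreceptor marker sum was higher in replicate 1 in every pair.

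*Pdh* (FBgn0011693) encodes the dehydrogenase that acts on the released visual chromophore in pigment cells, and was the most abundant member. It had 1381 to 1680 CPM at hour 4, 1078 to 1409 CPM at hour 0 and 353 to 443 CPM at hour 16 in the light. In darkness at 25 °C hour 4 stood at 1245 to 1451 CPM and hour 16 at 670 to 953 CPM. Hour 4 there was only 1.09 times the mean of hours 12 and 20, and the day contrast was 0.12 ± 0.07. The antisense transcript asRNA:CR45894 lies opposite the *Pdh* gene and followed it with 6.58 to 12.9 CPM at hour 4 and 1.81 to 3.20 CPM at hour 16. The library kit keeps strand, but the strand setting of the counting is not given in the sources used here, so reads of the pair may be shared. *w*, the ABC transporter for eye pigment precursors, had a ratio of 2.08 in the light and 1.75 in darkness at 25 °C.

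Genes of photoreceptor signalling and identity were highest at hour 4 in the light, and most were also high at hours 12 and 20, as the photoreceptor markers were. *inaC*, the eye protein kinase C of the phototransduction cascade, had 914 to 994 CPM at hour 4, 264 to 413 CPM at hour 16 and 679 to 701 CPM at hour 20 in the light. At hour 0 its replicate 1 libraries (901 and 942 CPM) were about as high as hour 4 and its replicate 2 libraries (429 and 472 CPM) were not. *gl*, the zinc-finger factor of photoreceptor identity, showed 52.8 to 65.6 CPM at hour 4, 50.1 to 57.5 CPM at hour 12 and 22.3 to 34.6 CPM at hour 16. Its replicate pairs at hour 0 were 56.8 against 22.5 CPM and 53.9 against 26.1 CPM. Replicate 1 exceeded replicate 2 at hour 0 in all 8 such pairs of the series for 22 members, 38.6% against 20.7% of all genes at 5 CPM or more. The reverse held for 7 members, 12.3% against 12.3% of all genes. The light-dark pairs among the 8 come from libraries that chose the members, so these shares are partly built in. The 22 with replicate 1 higher included *inaC*, *gl*, the zinc-finger factor gene *peb*, the photoreceptor protein gene *PIP82*, the lipid phosphatase gene *laza*, the metallophosphoesterase gene *Mppe*, and *CarT*, which imports carcinine into photoreceptors. *Hdc*, whose enzyme makes the photoreceptor transmitter histamine, the kainate receptor gene *Ekar*, the potassium channel gene *KCNQ*, the ARID factor gene *retn* and *DCX-EMAP*, a microtubule protein gene of mechanosensory cells, belonged to the same set.

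*Hdc* was highest at hour 4 (77.0 to 86.0 CPM) and lowest at hour 8 (30.7 to 54.7 CPM), with 73.6 to 78.7 CPM at hour 12. Its 4 over 20 and 8 over 16 ratios, 1.008 and 0.976, gave a geometric mean of 0.992. *gl* (1.10), *peb* (1.08), *CarT* (1.10), *Mppe* (1.07) and *Ekar* (1.09) were also close to 1 on that measure, whereas *inaC* kept 1.43, *Pdh* 1.55 and *Cpr72Ec* 2.01. In darkness at 25 °C the day contrast of *inaC* was 0.18 ± 0.13 and that of *gl* 0.08 ± 0.15, neither called. Of the 27 genes of a phototransduction list, 0 were called higher and 1 lower by the day contrast at 25 °C (0.205% and 0.355% of all genes). At 18 °C and 29 °C 0 were called in either direction, by edgeR's quasi-likelihood test. An unadjusted p under 0.05 was seen for 3, 1 and 1 of them at 25 °C, 18 °C and 29 °C (12.2%, 8.46% and 9.74% of all genes). *inaC* and *Pdh* are the only members on that list. The part of the photoreceptor marker level in the light-dark profile of these genes was not tested.

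*e* (ebony), whose enzyme joins histamine or dopamine to β-alanine, followed a further split among libraries. In darkness at 18 °C its day 4 replicate 1 libraries at hours 4 and 12 held 167 and 168.8 CPM, and the other 22 libraries held 38.1 to 65.6 CPM. In the light hour 4 held 160.8, 59.0, 173.5 and 73.9 CPM, and hour 16 held 34.5 to 47.0 CPM. Chosen after these values were seen, the ratio of replicate 1 to replicate 2 at hours 4 and 12 of day 4 at 18 °C was at least 1.8 for 5 members. They were *e*, *Lsp2*, *Dtg*, CG10062 and CG2145, 8.77% against 0.168% of all genes. CG10062 showed the same libraries, 12.4 and 17.7 CPM against 2.42 to 5.42 CPM in the other 22. In the light CG10062 had 13.5, 5.69, 15.1 and 5.93 CPM at hour 4 and 2.35 to 4.07 CPM at hour 0. *e* belongs to a list of known clock outputs. Of 17 genes of that list tested, the day contrast in darkness at 25 °C called 2 higher and 1 lower (0.205% and 0.355% of all genes).

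*Hr38* (FBgn0014859), an NR4A nuclear receptor gene used as a marker of recent neuronal activity, was high in the light at hours 4, 8 and 12 and low at the rest. Hour 4 held 31.0, 23.5, 32.3 and 33.2 CPM, hour 8 held 22.6, 18.5, 25.6 and 22.1 CPM, and hour 12 held 25.8, 23.5, 32.4 and 25.5 CPM. At hours 0, 16 and 20 the libraries ranged from 6.89 to 13.6 CPM, with no overlap. In darkness the 72 libraries ranged from 7.19 to 16.5 CPM at all hours and temperatures, and the ratio of hour 4 to hour 16 was 0.771, 0.810 and 0.874 at 25 °C, 18 °C and 29 °C. The mean in the light was 1.65 times that in darkness at 25 °C, the highest such ratio of any member. Its day contrast in darkness was −0.21 ± 0.10, −0.38 ± 0.11 and −0.08 ± 0.10 at 25 °C, 18 °C and 29 °C, and none was called. Of 10 genes of an activity-regulated list, 0 were called by the day contrast at 25 °C or 18 °C, and 1 was called higher at 29 °C by edgeR (0.224% of all genes). An unadjusted p under 0.05 was seen for 5, 2 and 3 of them at 25 °C, 18 °C and 29 °C (12.2%, 8.46% and 9.74% of all genes).

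The tyrosine breakdown genes *Hpd* (4-hydroxyphenylpyruvate dioxygenase) and *hgo* (homogentisate 1,2-dioxygenase) encode enzymes of successive steps and had like profiles. *Hpd* held 284, 293.2, 315.3 and 319.5 CPM at hour 4, 281 to 306 CPM at hour 8, 249 to 305 CPM at hour 0, and 88.6 to 121 CPM at hour 16 in the light. The libraries of hours 0, 4 and 8 all lay above those of hours 12, 16 and 20 (highest 179 CPM). In darkness at 25 °C *Hpd* ran from 134 to 311 CPM, and its 24 h rhythm was called with a log2 amplitude of 0.32 and a peak at hour 2.84 (adjusted p = 0.0023 by edgeR's quasi-likelihood test with Benjamini-Hochberg adjustment). Without replicate 2 that call was lost, at an amplitude of 0.28. At 18 °C it ran from 100.2 to 154 CPM with an amplitude of 0.077 (adjusted p = 0.945), and at 29 °C from 155 to 339 CPM with 0.20 (adjusted p = 0.448). The difference in its day contrast between 18 °C and 25 °C was −0.50 ± 0.14 and was not called (adjusted p = 0.243, edgeR). *hgo* had 48.9 to 56.6 CPM at hour 4, 48.4 to 55.0 CPM at hour 8 and 22.2 to 27.3 CPM at hour 16 in the light. In darkness its day contrast was 0.34 ± 0.11, −0.06 ± 0.11 and 0.22 ± 0.11 at 25 °C, 18 °C and 29 °C, none called. No gene of the 16 on an amino acid and one-carbon list that holds *hgo* was called by the day contrast at any temperature by edgeR. An unadjusted p under 0.05 was seen for 4, 2 and 1 of them at 25 °C, 18 °C and 29 °C (12.2%, 8.46% and 9.74% of all genes).

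**Figure D3:**
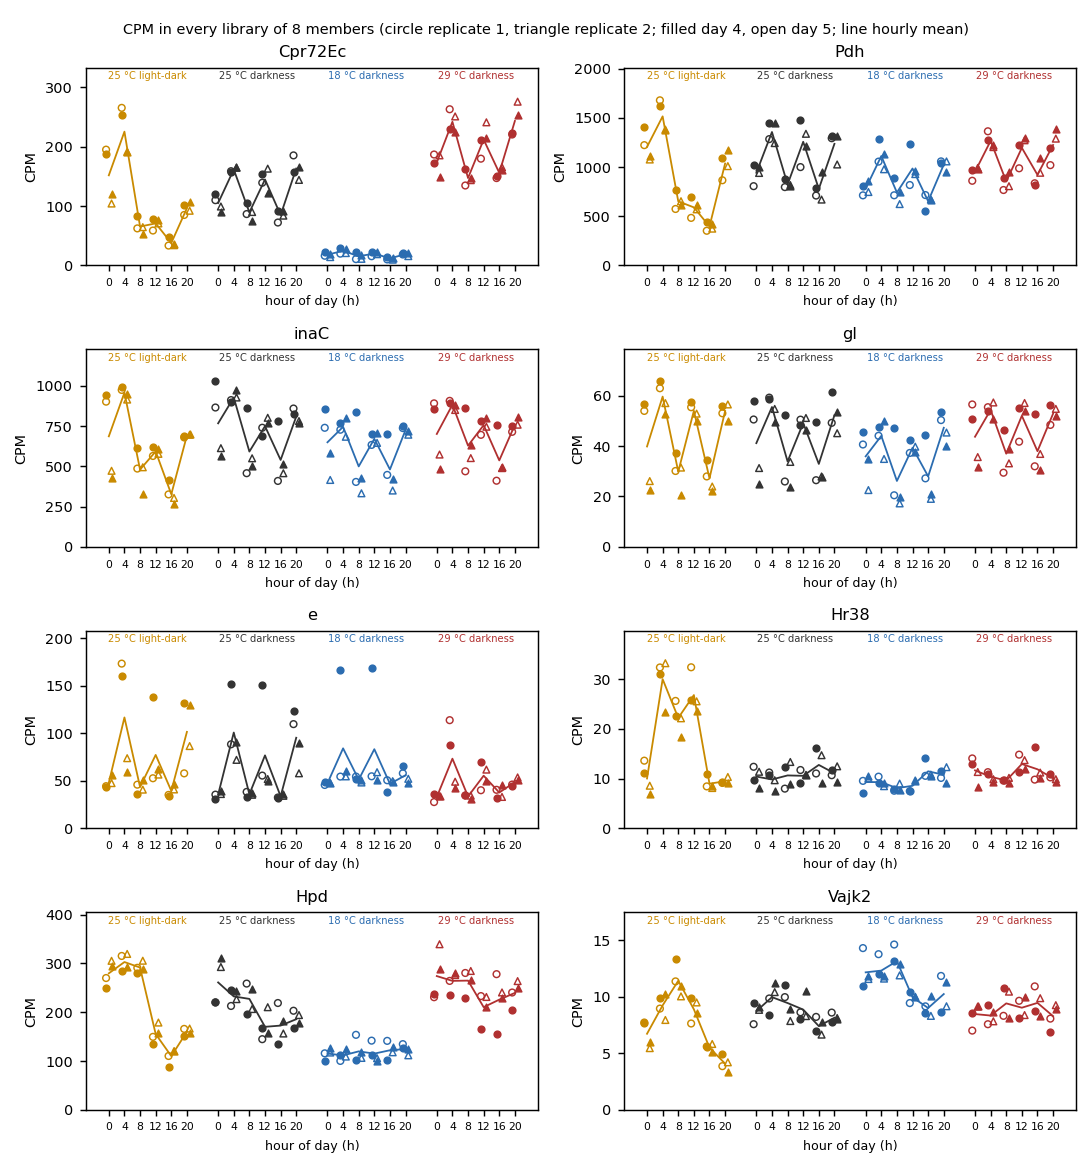
CPM (y axes, from 0) of 8 members in every library against hour of day (x axes) in 4 conditions, with circles for replicate 1, triangles for replicate 2, filled points for day 4, open points for day 5 and lines through hourly means. *Hr38* and *Hpd* form a plateau in the light-dark cycle, *Hr38* ranges from 7.19 to 16.5 CPM in darkness, and *inaC* and *gl* alternate between hours in every condition.

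*Vajk2*, *Chd64* and lncRNA:CR46393 were, with *Hpd*, the only members called by the rhythm or the day contrast in darkness. *Vajk2* had 10.03 to 13.3 CPM at hour 8 and 3.34 to 4.93 CPM at hour 20 in the light. In darkness at 18 °C it held 11.9 to 14.6 CPM at hour 8, 11.6 to 13.8 CPM at hour 4 and 8.30 to 11.8 CPM at hours 16 and 20, with a day contrast of 0.37 ± 0.08 (adjusted p = 0.00929, edgeR) and a called rhythm peaking at hour 4.42 (amplitude 0.23, adjusted p = 0.0151, edgeR). At 25 °C its contrast was 0.33 ± 0.08 (adjusted p = 0.0354, edgeR), and at 29 °C 0.03 ± 0.08. The contrasts at 29 °C and 25 °C differed by −0.29 ± 0.11, which was not called. No call of *Vajk2* remained when either replicate was left out, with contrasts of 0.30 and 0.33 at 25 °C.

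*Chd64*, which encodes a calponin-like actin-binding protein, had 287 to 315 CPM at hour 4 and 160 to 175 CPM at hour 16 in the light. In darkness at 25 °C its rhythm was called with an amplitude of 0.16 and a peak at hour 0.493 (adjusted p = 8.59e-05, edgeR), a call lost without replicate 1, at an amplitude of 0.12. The rhythm fit, unlike the day contrast, uses hour 0. There replicate 1 exceeded replicate 2 for *Chd64* in 7 of 8 pairs of the series (median ratio 1.16). The part of that difference in the rhythm was not tested. At 29 °C the rhythm had an amplitude of 0.13 and a peak at hour 4.21 (adjusted p = 0.0158, edgeR), and the day contrast was 0.19 ± 0.04 (adjusted p = 0.00311, edgeR). The rhythm call at 29 °C was lost without replicate 1 (amplitude 0.12) and the contrast call without replicate 2 (0.18). At 18 °C it ran from 225 to 290 CPM with an amplitude of 0.049 (adjusted p = 0.945, edgeR). lncRNA:CR46393 shares exon sequence with *cry* on the same strand, so its counts may include reads of *cry*. It held 21.1 to 23.1 CPM at hour 4 and 6.40 to 6.99 CPM at hour 16 in the light. Its day contrast in darkness at 25 °C was 0.30 ± 0.07 (adjusted p = 0.0154, edgeR), a call lost when either replicate was left out, with contrasts of 0.20 and 0.40.

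Of the members, *Lsp2* is a marker of the fat body and *eater* one of blood cells. *Lsp2*, a storage protein gene of the fat body, varied most between libraries, from 11.6 to 120 CPM in the light and from 2.19 to 141 CPM in darkness at 25 °C. Its hour 8 libraries in the light held 66.2, 120.3, 21.7 and 89.2 CPM and its hour 12 libraries 45.8, 43.9, 14.6 and 20.3 CPM, which overlap. Its day contrast was 1.06 ± 0.40 at 25 °C, −0.56 ± 0.40 at 18 °C and 1.11 ± 0.39 at 29 °C, none called. *eater*, a phagocytic receptor gene of hemocytes, had 23.3 to 26.4 CPM at hour 8 and 10.8 to 14.2 CPM at hour 20 in the light, with 19.2 to 24.8 CPM at hour 16. The 5 hemocyte markers, of which *eater* is 1, summed to 884 to 1103 CPM at hour 8 and 657 to 874 CPM at hour 20, and their part in its profile was not tested. *CAH9*, a carbonic anhydrase gene, had 20.02 to 24.7 CPM at hour 8 and 9.51 to 12.2 CPM at hour 20.

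The cytochrome P450 genes *Cyp305a1* and *Cyp309a1* differed in profile. *Cyp305a1* had 40.6 to 52.0 CPM at hour 4 and 21.5 to 23.7 CPM at hour 16 in the light, and in darkness at 25 °C these hours gave 33.8 to 38.4 and 27.9 to 42.8 CPM, a ratio of 1.03. *Cyp309a1* had 12.4 to 17.3 CPM at hour 8 and 5.61 to 9.36 CPM at hour 0 in the light, and its ratio in darkness at 25 °C was 0.984. Of 134 genes tested from a detoxification list, the day contrast at 25 °C called 2 higher and 1 lower (0.205% and 0.355% of all genes). Neither P450 gene was among those called.

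Of the members with the largest ratios, CG14329, CG42329, CG9377 and CG14257 have, like CG10062 above, no function stated here. CG14329 held 25.9 to 27.6 CPM at hour 4, 24.4 to 28.4 CPM at hour 0 and 3.03 to 5.66 CPM at hour 12 in the light, a ratio of 5.87. In darkness at 25 °C it ran from 15.5 to 29.3 CPM, with 21.8 to 25.4 CPM at hour 4 and 19.5 to 22.7 CPM at hour 12, which overlap. Every light-dark library of hours 12 and 16 (highest 6.21 CPM) lay below every dark library of any temperature (lowest 15.5 CPM). CG42329 had 13.4 to 18.8 CPM at hour 4 and 2.06 to 4.18 CPM at hour 12, and its ratio in darkness was 1.404, 0.878 and 1.32 at 25 °C, 18 °C and 29 °C. CG9377 had 28.1 to 49.9 CPM at hour 4 and 7.40 to 15.99 CPM at hour 16 in the light, and its day contrast of 0.57 ± 0.17 in darkness at 25 °C was not called. CG14257 had 10.4 to 15.1 CPM at hour 4 and 3.24 to 5.33 CPM at hour 16, and its ratio in darkness at 25 °C was 1.90.

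The other members had ratios in the light between 1.81 and 2.70. With known roles these were the cuticle protein gene *Cpr49Ag*, *dysc*, a PDZ protein gene needed for locomotor rhythms, *Nplp3*, a neuropeptide-like precursor gene, and *Dtg*, a target of Dpp signalling. *Nplp3* had a day contrast of 0.25 ± 0.10, 0.23 ± 0.10 and 0.26 ± 0.10 in darkness at 25 °C, 18 °C and 29 °C, none called. The remaining members are *tfc*, *RhoGEF64C*, asRNA:CR43480, CG15211, CG9444, CG4914, CG42489, CG7402, CG3699, CG18598, CG11951, CG5639, CG5326, CG2145, CG13082, CG42331, CG31038, CG5921 and CG34398. Among them CG4914 (1.94) and CG11951 (1.84) had the largest light-dark ratios when both sets of hours weighed equally.

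Across all members, tests in darkness called few. All 57 were among the 10710 genes tested by edgeR's quasi-likelihood test, with a call at a Benjamini-Hochberg adjusted p under 0.05. The 24 h rhythm was called for 2 members at 25 °C (0.439% of all genes tested), 1 at 18 °C (0.196% of all genes) and 1 at 29 °C (0.149%). The day contrast was called higher for 2 members at 25 °C (0.205% of all genes), 1 at 18 °C (0.14%) and 1 at 29 °C (0.224%), and lower for 0 at each temperature (0.355%, 0.0654% and 0.121% of all genes). At an unadjusted p under 0.05, in either direction, the contrast of 15, 8 and 11 members passed at 25 °C, 18 °C and 29 °C (12.2%, 8.46% and 9.74% of all genes). It was above 0 in 45, 41 and 42 members with medians of 0.09, 0.03 and 0.07, beside medians of 0.0087, 0.0056 and 0.0045 over all genes tested. Over all genes tested, 5690 of 10710 were above 0 at 25 °C. In 30 members the contrast was above 0 at all 3 temperatures, and the like share of all genes was not computed. The difference of the contrast from 25 °C was called for 0 members at 18 °C (0.0934% of all genes higher, 0.00934% lower) and 0 at 29 °C (0.00934% and 0%), where 7 and 3 had an unadjusted p under 0.05 (3.96% and 2.95% of all genes) and DESeq2 also called 0.

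Each member's own light-dark highest and lowest hours were also compared in darkness, mostly hour 4 with hour 16. The ratio was at least 1.4 in 28 members at 25 °C (1.88% of the 8342 genes), 24 at 18 °C (1.29%) and 18 at 29 °C (1.4%), with medians of 1.398, 1.36 and 1.31. The 4 libraries of the one hour all lay above the 4 of the other in 26 (6.05%), 18 (4.34%) and 24 (13.9%) members. With hours 4 over 20 and 8 over 16 weighted equally, 2 members reached 1.4 at 25 °C (0.0719% of genes), 0 at 18 °C (0.0959%) and 1 at 29 °C (0.168%). The light-dark cycle had 26, but its libraries chose the members, so a lower count in darkness is partly built in. The photoreceptor marker ratio of hour 4 to hour 16 was 1.24, 1.43 and 1.195 in darkness at 25 °C, 18 °C and 29 °C, and its part in these counts was not tested.

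**Figure D4:**
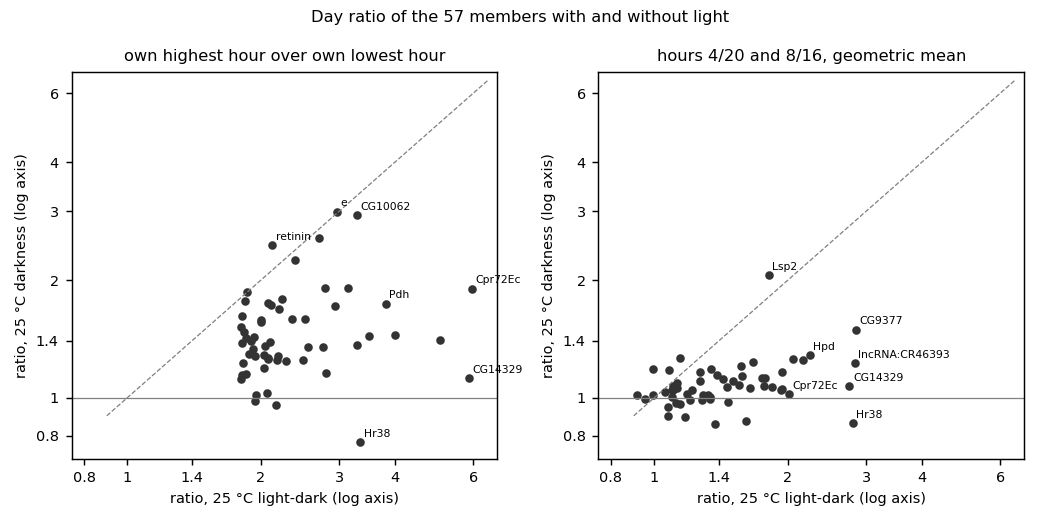
Ratio of CPM in darkness at 25 °C (y axis, log scale) against that in the light-dark cycle (x axis, log scale), 1 point per member; left, each member's own light-dark highest over lowest hour, right, the geometric mean of hour 4 over 20 and hour 8 over 16. The dashed line marks equal ratios. On the left many points lie well above 1 in darkness, *e* and *retinin* on or above the line; on the right all but *Lsp2* and CG9377 lie under 1.4 in darkness. Light-dark values, on the x axes, chose the members.

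Mean levels in darkness differed with temperature, most between 18 °C and 25 °C. At 18 °C 26 members were called lower and 10 higher than at 25 °C, beside 34.1% and 32.7% of all genes tested. *Cpr72Ec* fell by the most: it ran from 9.80 to 29.6 CPM (median 18.8) at 18 °C and from 72.4 to 185 CPM (median 122) at 25 °C with no overlap, a log2 difference of −2.85 ± 0.12 (adjusted p = 1.67e-37, edgeR). CG9377 ran from 4.02 to 15.1 CPM (median 8.89) against 14.7 to 37.8 CPM (median 22.7), a difference of −1.46 ± 0.11. Their ranges touch at the ends. CG7402, at 1.73 to 4.51 CPM against 5.19 to 9.60 CPM, differed by −1.30 ± 0.07 with no overlap. *Cyp309a1*, at 3.34 to 7.24 CPM (median 4.98) against 5.22 to 15.6 CPM (median 11.5), differed by −1.18 ± 0.10. CG42331 (−1.07 ± 0.11) and *hgo* (−1.05 ± 0.06, 14.3 to 26.2 against 24.7 to 53.9 CPM) also fell more than 2-fold, and *Hpd* fell by 0.84 on the log2 scale. *CAH9* rose by the most, from 8.75 to 17.5 CPM (median 12.9) at 25 °C to 15.6 to 26.3 CPM (median 21.4) at 18 °C, a difference of 0.75 ± 0.05. CG13082 (7.78 to 13.3 against 3.95 to 9.18 CPM, 0.67 ± 0.05), CG5639 (7.86 to 17.0 against 4.48 to 9.81 CPM, 0.58 ± 0.07) and CG11951 (26.0 to 37.4 against 17.8 to 28.1 CPM, 0.41 ± 0.05) followed.

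Eye genes were among those lower at 18 °C. *retinin* (−0.40 ± 0.12), *Mppe* (−0.41 ± 0.08), *Pdh* (−0.31 ± 0.09), *gl* (−0.32 ± 0.13) and *inaC* (−0.26 ± 0.10) were called, those of *gl* and *inaC* only with both replicates and those of *Pdh* and *retinin* not without replicate 2, while *Hdc* (−0.06 ± 0.11), *PIP82* (−0.11 ± 0.11) and *CarT* (−0.16 ± 0.11) were not. Of the phototransduction list, 20 of 27 genes were called lower and 1 higher (34.1% and 32.7% of all genes), with a median of −0.30 beside −0.0037 over all genes tested. All 5 photoreceptor markers were called lower, their sum running from 32615 to 72276 CPM at 18 °C and from 49018 to 84846 CPM at 25 °C, and their part in these members was not tested. The detoxification list had 62 genes higher and 42 lower of 134, with *Cyp305a1* higher (0.36 ± 0.04) and *Cyp309a1* lower. The amino acid list had 4 higher and 8 lower of 16, the activity-regulated list 1 higher and 5 lower of 10 with *Hr38* lower (−0.22 ± 0.08, not called without replicate 1), and the clock output list 3 higher and 4 lower of 17.

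At 29 °C 6 members were called higher and 5 lower than at 25 °C, beside 13.8% and 12.9% of all genes tested, and none by 2-fold. *Cpr72Ec*, at 135 to 276 CPM (median 186), rose by 0.62 ± 0.11 (adjusted p = 4.11e-06, edgeR), *Cyp309a1* by 0.33 ± 0.10, CG3699 by 0.30 ± 0.09 and CG7402 by 0.29 ± 0.07. Their ranges at 29 °C and 25 °C overlap: 6.81 to 19.3 against 5.22 to 15.6 CPM for *Cyp309a1*, 5.80 to 16.2 against 4.37 to 10.1 CPM for CG3699, and 7.16 to 11.9 against 5.19 to 9.60 CPM for CG7402. *CAH9*, at 7.89 to 12.9 CPM (median 9.52), fell by 0.37 on the log2 scale, CG11951 by 0.32, CG5639 by 0.21 and CG14329 by 0.20. Without replicate 2, CG3699 (0.24), CG5639 (−0.18), CG14329 (−0.19), *Hpd* (0.18) and *Chd64* (−0.075) were no longer called, nor was CG5639 without replicate 1 (−0.25). The comparisons at 18 °C and 29 °C share the 25 °C libraries. With that in view, *Cpr72Ec*, *Hpd*, *hgo*, *Cyp309a1*, CG3699 and CG7402 were lower at 18 °C and higher at 29 °C than at 25 °C, and *CAH9*, CG11951 and CG5639 the reverse. At 29 °C the phototransduction list had 4 genes higher and 1 lower, the detoxification list 14 and 42, the amino acid list 3 and 3, the activity-regulated list 1 and 1, and the clock output list 2 and 5.

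**Figure D5:**
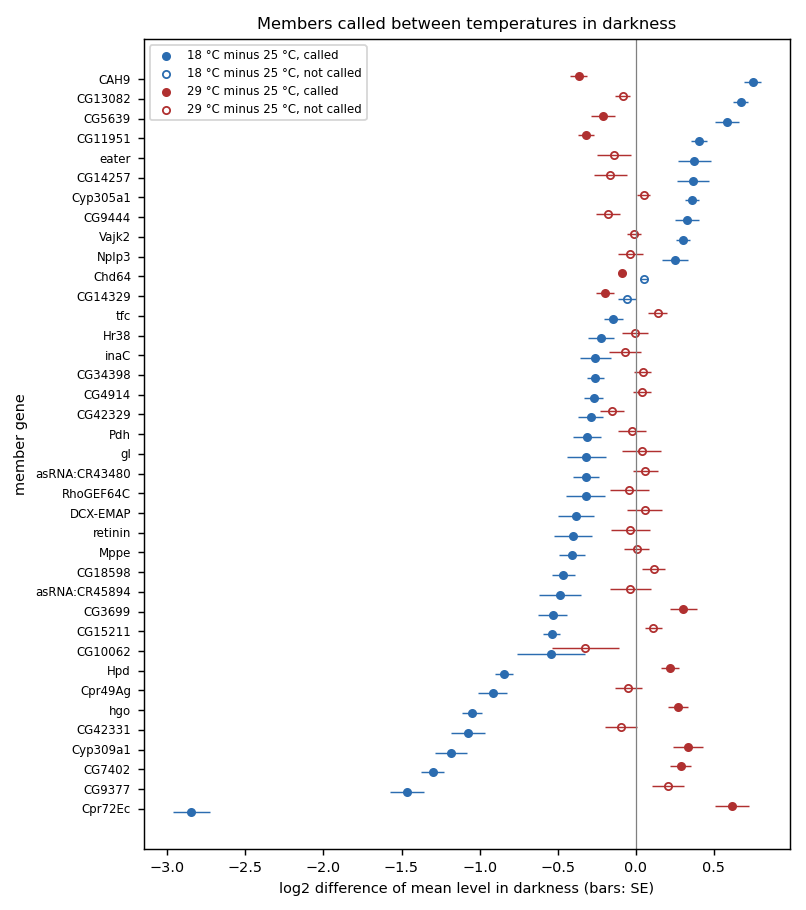
Log2 difference of mean level in darkness from 25 °C (x axis, bars are SE) for every member called at 18 °C (blue) or 29 °C (red), with filled points for called and open points for not called differences. *Cpr72Ec* lies lowest at 18 °C (−2.85) and highest at 29 °C (0.62), and *CAH9* the other way round (0.75 and −0.37).

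As a description, the mean of a member in the light was between 0.694 (CG14329) and 1.65 (*Hr38*) times its mean in darkness at 25 °C, with a median of 1.009 and 31 of 57 above 1. The light-dark highest hour lay above the dark mean in 56 members, at a median of 1.39 times it, and the lowest hour lay below it in all 57, at a median of 0.639 times. The members just inside the 1.8-fold limit were *Hdc* (1.803), CG34398 (1.805) and *dysc* (1.809), and just outside it were CG13280 (1.796), CG7255 (1.79) and *stum* (1.78).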

How the data were processed

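The authors deposited 1 table of counts per gene for 96 libraries. Its values are estimated counts, since 40.2% of the nonzero values are not whole, and they were not normalized when deposited. Per the submitters' processing notes, reads were handled with fastp 0.23.2, HISAT2 2.2.1 and featureCounts of Subread 2.0.8; the genome build and the strand setting are not given in the sources used here. CPM was computed from column totals. For tests the estimated counts were rounded to whole numbers, which the planned test on counts had not foreseen, and fitted over all libraries with edgeR 4.0.16 in R 4.3.3 (filterByExpr, TMM, glmQLFit, glmQLFTest), leaving 10710 of 16966 genes with any count. The rhythm and level tests used a 24 h cosine and sine, a mean and a day shift per condition; the day contrast used hourly means. DESeq2 1.42.0 was an alternative, and the fits were tested on simulated counts. Gene symbols came from the Ensembl annotation for 17607 of 17610 identifiers.

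The members, lists and tests were chosen with earlier results of these data known. Values by library are printed for the 10 members with the highest light-dark ratio, for members called in darkness (up to 5 a condition), for the 4 largest called rises and 4 largest falls at each temperature, and for members on the lists of phototransduction, activity-regulated, detoxification, amino acid and clock output genes. Others were named for their role. The p-values measure the spread of the libraries around each fit. It holds the spread between replicates that the study calls biological and differences between days that vary by hour. In the rhythm and level tests it also holds departures from the 24 h cosine. Counts carry no molecular identifiers.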

Additional observations from a re-analysis of the deposited data

How the results depend on the processing

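The rule found 112 genes at a light-dark ratio of 1.6, 37 at 2 and 134 at a mean of 1 CPM. Without replicate 1 it found 53, of which 33 were members, and without replicate 2 it found 125, of which 49 were members. Chosen after seeing the data, hours 4, 12 and 20 alone gave 23 and hours 0, 8 and 16 alone gave 19. Counts of members called in darkness rested on few libraries. Leaving out a replicate gave 1 rhythm at 25 °C, 0 at 18 °C and 0 to 1 at 29 °C. Without replicates 1 and 2 the shares of all genes were 0.028% and 0.179% at 25 °C, 0% at 18 °C, and 0.00934% and 0.104% at 29 °C. Higher day contrasts were 0 to 4, 0 and 0 to 2, with 0 to 2 lower at 18 °C. Of all genes, either way, 0.252% and 0.123% passed at 25 °C, 0.187% and 0.0377% at 18 °C, and 0.0747% and 0.236% at 29 °C. The difference of 18 °C from 25 °C gave 0 to 3 lower (0.131% and 0.0377% either way). Levels at 29 °C gave 2 to 4 lower (1120 of 10705 and 472 of 10604 genes). Day 4 or day 5 alone gave 0 rhythms and 0 higher day contrasts at each temperature. Over all genes, day 4 alone called a rhythm in 0.131%, 0.0187% and 0.0375% at 25 °C, 18 °C and 29 °C, and day 5 alone in 0%. The contrast, either way, was called in 0.103%, 0.0375% and 0.0187% on day 4 alone, and in 0%, 0.0188% and 0% on day 5 alone. Day 4 alone gave 1 higher level at 29 °C (443 of 10674 genes), and each day alone 2 lower (354 of 10674 and 787 of 10622 genes). With no filter the rhythm at 29 °C gave 0 (0.0707% of all genes) and the day contrast at 25 °C 1 (0.218% either way). DESeq2 gave 4 rhythms at 25 °C (0.691% of all genes). Hours 16, 20 and 0 as the low hours gave 0 higher contrasts at 25 °C and 18 °C (0.14% and 0.112% of all genes either way). The cosine fit gave 0 at 25 °C (0.308% either way). Hour 4 against 20 alone gave 0 at each temperature (0.103%, 0.0467% and 0.0187% at 25 °C, 18 °C and 29 °C). Hour 8 against 16 alone gave 0 at 25 °C and 29 °C (0.056% and 0.028%). With 2 residual components as covariates the rhythms were 21, 13 and 11 (25 °C, 18 °C, 29 °C; 7.21%, 6.04% and 6.41% of all genes), higher contrasts 13, 2 and 9, lower 2, 3 and 3 (14.1%, 7.51% and 11.3% of all genes in either direction), the difference of 18 °C from 25 °C 3 lower (0.728% either way), and levels at 29 °C 10 higher and 10 lower (2185 and 2218 of 10710 genes). With the photoreceptor marker level as a covariate, added after seeing the data, rhythms were 11 at 25 °C and 4 at 29 °C (1.78% and 0.56% of all genes), higher contrasts 10, 2 and 3, lower 1 at 25 °C and 1 at 18 °C (2.08%, 0.803% and 1.25% either way), the difference 2 lower (0.299% either way), and lower levels at 29 °C 9 (1777 of 10710 genes). The cause of these changes was not tested.

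Replicate numbers were not taken to pair the libraries, since the labels name no shared source. Nor did every pair of same-numbered libraries correlate over 0.1: 14 of 24 did and 20 were above 0 (−0.20 to 0.61, median 0.13). The 4 pairs of hour 0 had 0.24 to 0.46, and those of hours 8 and 16 on day 4 had 0.32 to 0.61. With the replicate block the rhythms were 6 at 25 °C and 2 at 29 °C (0.663% and 0.243% of all genes), the day contrast 4 higher at 25 °C and 1 lower at 18 °C (0.915% and 0.299% either way), the difference of 18 °C from 25 °C 2 lower (0.373% either way), and lower levels at 29 °C 12 (1969 of 10710 genes).

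For single members 6568 values kept their side of the threshold, 91 lost a call, 178 gained one and 3 turned. Values called in neither setting count as kept even where their sign changed. Those that turned were of *Lsp2* at 18 °C against 25 °C (−0.30 as reported, −1.42 without replicate 1, 0.65 without replicate 2, 1.499 on day 5 alone) and *tfc* (0.0065 on day 5 alone).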
